A study of Mus musculus with 30 samples.

Results

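CTCF, a zinc-finger protein that binds an oriented DNA motif, was compared with RAD21, a subunit of the cohesin ring, across the genome of wild-type (WT) mouse embryonic trunks. The comparison used 7 of the 30 libraries of the series: all 3 CTCF libraries and all 4 RAD21 libraries of the WT genotype. Both groups were B6CBAF1 embryos at E10.5, mid-gestation embryos, with no mutated CTCF binding site and no treatment. Per the labels, the WT embryos were littermates of homozygous mutants, and the trunk from below the post-occipital region was dissociated embryo by embryo. The other 23 libraries, 11 for CTCF and 12 for RAD21, came from embryos homozygous for 1 of 6 alleles with mutated CTCF binding sites (CBS) of the Hoxd cluster. They are Del(CBS1) and Del(CBS2), and the wider Del(CBS1-2), Del(CBS1-3), then Del(CBS1-4) and Del(CBS1-5). They were used only to repeat comparisons first made in WT.

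Cohesin holds pairs of DNA segments together and extrudes chromatin into loops. CTCF bound in the right orientation halts this movement, so that many loop anchors carry both proteins, and cohesin comes to rest towards a particular side of the CTCF motif. Cohesin also enters chromatin away from CTCF, with active promoters among the places where it is found. In developing trunk, CTCF and cohesin are known for dividing the Hox clusters into domains that are activated one after another.

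Both proteins were mapped by ChIPmentation, a chromatin immunoprecipitation in which Tn5 transposase inserts the sequencing adapters on the beads, after shearing to an average of 250 to 300 bp. The deposited data are 1 peak list per library. Each peak has a summit and a fold enrichment, which sets the summit against the background around it in that library. The CTCF lists held 52925, 57271 and 75027 peaks and the RAD21 lists 22449, 39841, 32522 and 34230 peaks, with median folds of 8.61, 5.94 and 5.73 for CTCF and of 6.71, 4.76, 5.23 and 6.43 for RAD21. The read depth behind a list is unknown, so a place without a peak was not detected rather than free of the protein. A trunk holds many cell types, so binding in fewer cells and weaker binding per cell cannot be told apart, and peak lists give no expression with which to check the tissue label against marker genes.

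Summits of the libraries of each antibody that lay within 150 bp of each other were joined, and a site was kept when every WT list of that antibody had a peak over the median summit. This gave 47658 CTCF sites and 20061 RAD21 sites on the assembled chromosomes. With a peak required in at least 2 lists there were 59324 CTCF sites and 33673 RAD21 sites. RAD21 replicate 4 stood apart from the other RAD21 libraries at transfer RNA (tRNA) genes. The number of RAD21 sites without CTCF and their shares at gene starts and tRNA genes are therefore also given without it. So are the summit offset from the motif and the counts of sites called by rank. Other readings of RAD21 sites that lacked some or all CTCF lists are given only with it.

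The DNA at 8 sites shows the kinds of place that the comparison separated. The first 4 are promoters where CTCF ranked far above RAD21, the next 2 are promoters with a strong CTCF peak and no RAD21 peak, and the last 2 are promoters where RAD21 ranked above CTCF. The sequences are RefSeq promoter windows of the GRCm38.p6 assembly, 250 bases before to 50 after the gene start, read along the strand of the gene. Capitals mark matches to the 12-base core of the CTCF motif, searched on both strands, in which the third, the fifth, the eighth and the ninth base are free and the other bases are those that all 4 marked stretches share. They lie at chr17:56036610-56036909 (minus strand) for Sh3gl1, chr3:108840453-108840752 (minus) for Stxbp3, chr2:151493932-151494231 (plus) for Nsfl1c, chr14:48445873-48446172 (plus) for Tmem260, chr5:136116441-136116740 (plus) for Polr2j, chr17:24724374-24724673 (minus) for Ndufb10, chr2:74691641-74691940 (plus) for Hoxd10 and chr11:76406675-76406974 (plus) for Timm22.
Sh3gl1: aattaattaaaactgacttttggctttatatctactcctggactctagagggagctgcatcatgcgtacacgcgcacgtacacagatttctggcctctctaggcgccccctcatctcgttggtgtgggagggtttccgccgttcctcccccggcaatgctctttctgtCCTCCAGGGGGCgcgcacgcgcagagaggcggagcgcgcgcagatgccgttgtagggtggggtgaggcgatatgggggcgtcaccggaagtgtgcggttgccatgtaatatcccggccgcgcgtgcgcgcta
Stxbp3: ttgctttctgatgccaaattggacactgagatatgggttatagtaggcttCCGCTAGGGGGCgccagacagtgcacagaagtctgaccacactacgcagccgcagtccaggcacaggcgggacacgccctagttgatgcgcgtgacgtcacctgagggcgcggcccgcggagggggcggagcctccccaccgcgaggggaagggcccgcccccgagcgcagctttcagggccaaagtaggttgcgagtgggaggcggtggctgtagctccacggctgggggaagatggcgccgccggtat
Nsfl1c: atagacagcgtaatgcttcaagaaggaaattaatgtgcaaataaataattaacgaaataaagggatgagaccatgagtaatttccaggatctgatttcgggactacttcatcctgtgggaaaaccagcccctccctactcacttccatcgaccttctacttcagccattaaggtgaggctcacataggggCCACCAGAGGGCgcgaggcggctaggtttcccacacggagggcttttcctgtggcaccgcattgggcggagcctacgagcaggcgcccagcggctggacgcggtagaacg
Tmem260: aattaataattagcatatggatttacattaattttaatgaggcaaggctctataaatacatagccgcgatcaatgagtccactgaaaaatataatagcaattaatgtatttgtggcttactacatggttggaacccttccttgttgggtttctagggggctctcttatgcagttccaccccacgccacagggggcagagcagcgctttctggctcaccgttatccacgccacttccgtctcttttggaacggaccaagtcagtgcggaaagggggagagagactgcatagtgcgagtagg
Polr2j: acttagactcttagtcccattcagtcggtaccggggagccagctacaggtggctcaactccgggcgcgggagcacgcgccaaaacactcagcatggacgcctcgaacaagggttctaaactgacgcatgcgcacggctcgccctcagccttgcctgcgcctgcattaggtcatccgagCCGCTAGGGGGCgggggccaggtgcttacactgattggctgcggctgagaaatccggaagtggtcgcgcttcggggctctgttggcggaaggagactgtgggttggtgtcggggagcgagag
Ndufb10: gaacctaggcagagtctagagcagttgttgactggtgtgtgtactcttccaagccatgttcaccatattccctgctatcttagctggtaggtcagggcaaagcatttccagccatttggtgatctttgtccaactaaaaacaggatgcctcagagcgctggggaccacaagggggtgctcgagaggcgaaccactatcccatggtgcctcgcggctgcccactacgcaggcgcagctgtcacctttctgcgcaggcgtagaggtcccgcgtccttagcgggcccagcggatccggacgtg
Hoxd10: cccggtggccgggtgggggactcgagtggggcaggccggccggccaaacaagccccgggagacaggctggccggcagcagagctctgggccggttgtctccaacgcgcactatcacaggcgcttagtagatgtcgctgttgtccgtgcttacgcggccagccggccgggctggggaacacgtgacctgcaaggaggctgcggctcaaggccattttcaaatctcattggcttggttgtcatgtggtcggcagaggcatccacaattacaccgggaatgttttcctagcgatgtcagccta
Timm22: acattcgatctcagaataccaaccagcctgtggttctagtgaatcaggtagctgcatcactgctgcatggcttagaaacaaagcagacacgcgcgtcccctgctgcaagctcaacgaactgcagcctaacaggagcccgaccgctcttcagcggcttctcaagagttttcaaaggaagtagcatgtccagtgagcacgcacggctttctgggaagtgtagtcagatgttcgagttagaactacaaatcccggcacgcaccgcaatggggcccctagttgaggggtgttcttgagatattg

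The windows of Sh3gl1, Stxbp3, Nsfl1c and Polr2j each hold 1 match on the strand of the gene, and those of Tmem260, Ndufb10, Hoxd10 and Timm22 hold none. Among all 32851 promoter windows of the annotation, 2.43% hold a match. Only exact matches were counted. Of the 1679 windows that held the summit of a CTCF site, 19.2% (322) had one, so a window without a match may still hold a CTCF motif. The windows shown were picked after their values were seen, from the named gene starts (below) whose site falls inside the window, to show windows with and without a match. Of all such windows, 3 of 9 held a match where CTCF ranked far above RAD21, 1 of 2 where a strong CTCF peak had no RAD21 peak, and 0 of 3 where RAD21 ranked above CTCF.

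The first question was how far the 2 proteins share their sites. Nearly every RAD21 site carried CTCF, whereas RAD21 was detected at a part of the CTCF sites that grew with CTCF strength. Of the 47658 CTCF sites, 43.6%, 61.4%, 55.6% and 57.1% had a peak of RAD21 replicates 1 to 4 (mean 54.4% ± 7.64, SD, n = 4). Of the 20061 RAD21 sites, 98.8%, 99.3% and 99.5% had a peak of CTCF replicates 1 to 3 (mean 99.2% ± 0.354, SD, n = 3). The 2 ranges were far apart, with the highest RAD21 list below the lowest CTCF list. By number of lists, 19574 CTCF sites (41.1%) had a peak in all 4 RAD21 lists, 12067 (25.3%) in 1 to 3 and 16017 (33.6%) in none. Among RAD21 sites, 19789 (98.6%) had a peak in all 3 CTCF lists, 183 (0.912%) in 1 or 2 and 89 (0.444%) in none.

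Much of this asymmetry went with list length. When only the 22406 strongest peaks of each list were kept, the mean share of CTCF sites with RAD21 was 80.3%, and the mean share of RAD21 sites with CTCF was 84.3%. With lists of equal length 11.03% of the 18290 CTCF sites then had no RAD21 peak, and 76.8% of the 17092 RAD21 sites had all 3 CTCF lists. A share of sites therefore describes the lists as they were called.

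RAD21 detection followed the strength of CTCF. In the weakest decile of CTCF sites, ranked by mean fold percentile over the CTCF libraries, RAD21 replicates 1 to 4 had a peak at 5.04%, 17.3%, 13.3% and 15.5% of sites. In the strongest decile they had a peak at 92.4%, 97.3%, 95.4% and 95.2% of sites. The median CTCF fold was 3.97 in the weakest decile and 15.9 in the strongest. All 4 RAD21 libraries increased from each decile to the next, and replicate 1, which had the shortest list, was the lowest throughout. Sites with no RAD21 peak in any list made up 77.3% of the weakest decile and 1.85% of the strongest.

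**Figure D1:**
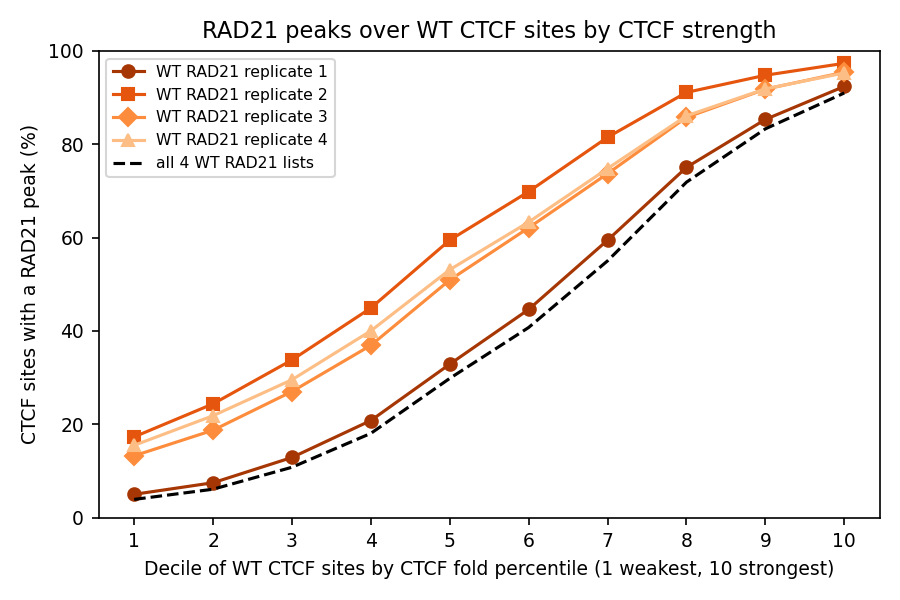
Share of WT CTCF sites covered by a RAD21 peak (y axis, percent) for each decile of CTCF strength (x axis), with 1 line per WT RAD21 library and a dashed line for sites covered in all 4. The dashed line is at 3.95% in the weakest decile and 91.0% in the strongest, and replicate 1 lies below the other libraries throughout.

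CTCF sites without RAD21 were weak as a class, with a few strong exceptions. The strongest of them lay 75 bp from the start of Polr2j, which encodes a subunit of RNA polymerase II, with CTCF folds of 22.0, 17.1 and 19.8. The next lay 93 bp from the start of Ndufb10, a subunit of respiratory complex I, with CTCF folds of 21.4, 16.4 and 19.1. The 6 CTCF values stood at percentiles 99.1 to 99.8 of the CTCF sites of their library, and no RAD21 list had a peak. The other 3 strongest were not within 1000 bp of a gene start. They lay 43758 bp from the span of Mgat4c, 5774 bp from that of Gm32427, and inside the span of Fabp12, with CTCF folds between 16.0 and 20.9. In the strongest decile of CTCF sites, 88 sites lacked RAD21 in every WT list. In the mutant libraries these 88 sites had a CTCF peak in 77.3% to 95.5% of cases per library, and a RAD21 peak in 0% to 27.3%, with a median of 11.9% over 12 libraries.

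Places without the other protein differed in where they lay. RAD21 sites with no CTCF list were at a gene start, meaning within 1000 bp of it, in 35 of 79 cases that could be placed (44.3%). RAD21 sites with 1 or 2 CTCF lists were at a start in 26.8% of cases and those with all 3 in 7.504%. CTCF sites showed no such gradient: 7.28% of those with no RAD21 list were at a start, 13.6% of those with 1 to 3 lists and 7.40% of those with all 4. The intermediate class was the highest for CTCF.

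The motif share moved the same way as co-occupancy. Of promoter windows that held the summit of a site, 13.5% (49 of 364) had a match at CTCF sites with no RAD21 list, 18% (117 of 650) at those with 1 to 3 and 23.4% (156 of 666) at those with all 4. In the strongest decile of CTCF sites 26.0% (95 of 366) had one. At RAD21 sites with no CTCF list 0 of 16 windows held a match, which allows a share of up to 18.75%, and at those with 1 or 2 CTCF lists 0 of 34, which allows up to 8.82%. These limits cover counting error only.

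Peaks of single lists gave a larger set of RAD21 peaks without CTCF. In RAD21 replicates 1 to 4, 712, 6418, 3139 and 3908 peaks had no peak of any CTCF list at their summit, 3.18%, 16.1%, 9.68% and 11.4% of the list. They were weaker, with median folds of 4.33, 3.12, 3.24 and 3.85, against 6.82, 5.47, 5.63 and 7.14 for RAD21 peaks with CTCF. Of those without CTCF, 41.8%, 53.0%, 43.5% and 34.0% lay at a gene start, against 8.13%, 11.8%, 10.2% and 9.75% of those with CTCF. The share at starts was higher without CTCF in each of the 4 libraries. CTCF peaks without RAD21 went the other way: 7.55%, 7.24% and 7.57% lay at a start, against 10.0%, 10.2% and 11.2% of CTCF peaks with RAD21.

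Of the 5 strongest RAD21 sites without CTCF, 3 were at tRNA genes, which RNA polymerase III transcribes and which in budding yeast are known binding regions of condensin and of the cohesin loader. The list of 408 tRNA genes was made after these sites were seen. The top site lay 165 bp from n-TSgct7, a serine tRNA gene near Knl1, with RAD21 folds of 11.6, 17.4, 19.1 and 3.13. Sites inside n-TStga3, another serine tRNA gene, and n-TRacg6, an arginine tRNA gene, had folds of 10.4, 15.3, 14.8 and 3.32, and of 9.27, 15.7, 15.8 and 4.76. In all 3 the replicate 4 value was the lowest. The site nearest Gm41663, on chromosome 18, had similar folds in all 4 libraries (8.95, 10.3, 9.845 and 11.3), and the site inside LOC115488500 had 12.6, 12.4, 13.3 and 3.62.

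Of the 89 RAD21 sites with no CTCF list, 16 (17.98%) were within 1000 bp of a tRNA gene, against 27 of 19789 (0.136%) with all 3 CTCF lists. At these 16 the median RAD21 folds in replicates 1 to 4 were 8.70, 12.2, 12.1 and 3.61, and at the other 73 they were 4.60, 4.18, 3.95 and 4.69. Since a site needs every list, replicate 4 set this count. Without RAD21 replicate 4 there were 20816 RAD21 sites, of which 315 had no CTCF list, and 182 of these (57.8%) were within 1000 bp of a tRNA gene. The share of them at gene starts was then 35.6% (109 of 306).

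Counted over the 408 tRNA genes, a peak within 200 bp of the gene was found at 45, 50 and 64 genes in the CTCF libraries. In RAD21 replicates 1 to 3 it was found at 230, 265 and 270 genes, and in replicate 4 at 41. The first 3 RAD21 libraries were all far above CTCF, and replicate 4 was below every CTCF library. The labels give no batch, date or other difference for replicate 4, and the reason was not tested. Many tRNA genes have near-identical copies, so the peaks assigned to a single gene are uncertain.

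Summit positions placed the 2 proteins close together. A RAD21 site summit lay within 150 bp of the CTCF site summit at 19463 of the 19574 shared sites, at a median absolute distance of 18 bp (quartiles 9 and 32 bp) and a median signed distance of 1 bp. Of these, 29.9% were within 10 bp and 92.4% within 50 bp. In the strongest decile of CTCF sites the median was 16 bp (4329 sites) and in the weakest 22 bp (188 sites). Single libraries gave the scale of the measurement error. The median distance was 23 to 33 bp over the 12 pairs of a CTCF and a RAD21 library, 16 to 19 bp over the 3 pairs of CTCF libraries and 27 to 33 bp over the 6 pairs of RAD21 libraries. The distances between antibodies did not exceed those between RAD21 libraries.

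When the motif gave a direction, the 2 proteins separated. Within promoter windows, 141 shared sites had 1 match within 150 bp of the CTCF summit. Relative to the centre of the motif, with positive values towards the 3′ end of the motif as written in capitals above, the median CTCF summits lay at 0.5, -4.5 and -2.5 bp and the median RAD21 summits at 9.5, 8.5, 14.5 and 18.5 bp. The groups did not overlap: all CTCF libraries were within 5 bp of the centre and all RAD21 libraries were on the 3′ side. The means were -2.17 ± 2.52 bp for CTCF (SD, n = 3) and 12.8 ± 4.65 bp for RAD21 (SD, n = 4), a difference of -14.9 bp (exact permutation test over the 7 libraries, 2-sided, p = 0.0286, the smallest that 35 splits allow). Single sites varied far more than library medians, as the quartiles of RAD21 replicate 1 (-28.5 and 39.5 bp) show. The share of sites with the summit on the 3′ side was 50.4%, 44.7% and 46.1% for CTCF and 58.2%, 58.9%, 58.2% and 70.2% for RAD21. With the mean over sites in place of the median the difference was -14.1 bp and the exact p 0.0571. Without RAD21 replicate 4 it was -13 bp, at the smallest exact p that 6 libraries allow (0.1).

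**Figure D2:**
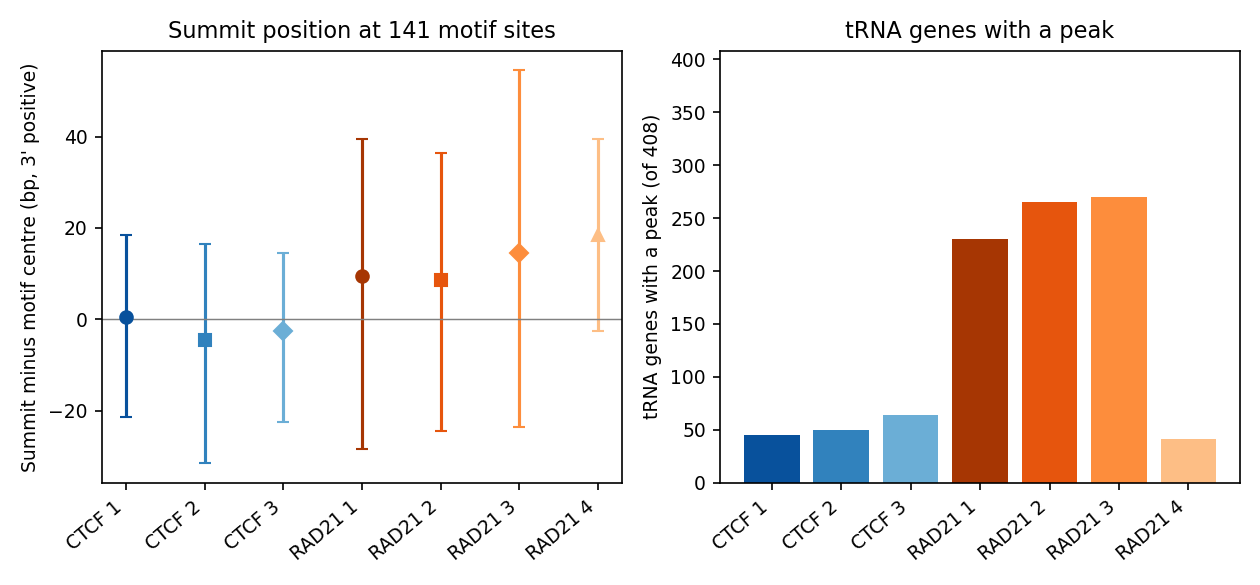
Left, median position of the summit relative to the centre of the CTCF motif (y axis, bp, positive towards the 3′ end) at 141 shared promoter sites for each WT library, with bars from the lower to the upper quartile of sites. CTCF medians sit at the motif and RAD21 medians 8.5 to 18.5 bp to its 3′ side. Right, number of the 408 tRNA genes with a peak within 200 bp in each WT library (y axis), where RAD21 replicate 4 has 41 and the other RAD21 libraries 230 to 270.

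The next question was where the peaks of each protein lay. Peaks in gene spans but not at starts made up 53.1%, 53.7% and 54.3% of the CTCF lists and 49.2%, 46.4%, 48.3% and 48.7% of the RAD21 lists. Every CTCF library was above every RAD21 library (difference 5.51 percentage points, exact permutation p = 0.0286, adjusted over 6 measures 0.0857). With the 22406 strongest peaks of each list this difference was 1.004 points (exact p = 0.0571, adjusted 0.114), and with peaks below a -log10 q of 10 left out it was 3.17 points (exact p = 0.0286, adjusted 0.0571). Peaks at gene starts made up 9.04%, 8.97% and 9.29% of the CTCF lists and 9.19%, 18.4%, 13.4% and 12.5% of the RAD21 lists (difference -4.27 percentage points, exact p = 0.0857, adjusted 0.171), and the groups overlapped at RAD21 replicate 1. Without RAD21 replicate 2 this difference was -2.59 points. CTCF peaks were wider, with medians of 560, 544 and 533 bp against 426, 489, 469 and 421 bp for RAD21 (difference 94.4 bp, exact p = 0.0286, adjusted 0.0857). No measure passed an adjusted p of 0.05, and an exact test on 7 libraries cannot go below 0.0286. The share outside genes was 37.2% ± 0.712 for CTCF and 38.5% ± 2.64 for RAD21 (SD, n = 3 for CTCF and 4 for RAD21, exact p = 0.486). The share over 50 kb from a gene was 4.12% ± 0.148 and 4.25% ± 0.309 (exact p = 0.6). The median distance to a start was 19414 ± 129 bp and 18622 ± 1602 bp (exact p = 0.571). These differences were smaller than the SD of the RAD21 libraries. Outside genes and in distance they were larger than the SD of the CTCF libraries. With weaker peaks left out this did not hold. The share outside genes was 40.4% ± 0.241 for CTCF and 41.9% ± 0.222 for RAD21 with the 22406 strongest peaks of each list (exact p = 0.0286, adjusted 0.0857). With peaks below a -log10 q of 10 left out it was 38.5% ± 0.623 and 43.2% ± 1.58 (exact p = 0.0286, adjusted 0.0571). At that q the share over 50 kb from a gene was 3.71% ± 0.18 for CTCF and 4.12% ± 0.171 for RAD21. The median distance to a start was then 18948 ± 332 bp for CTCF and 20522 ± 574 bp for RAD21 (exact p = 0.0571, adjusted 0.0571, for each of these 2 measures).

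The share at starts depended on the rank of the peak and on the protein. In the weakest decile of the RAD21 lists by fold, 17.5%, 36.7%, 29.2% and 26.4% of peaks lay at a gene start, and in the strongest decile 5.65%, 5.998%, 6.504% and 5.96%. In the weakest decile of the CTCF lists 12.1%, 8.23% and 10.4% did, and in the strongest 11.3%, 13.4% and 11.2%. Among the strongest deciles every CTCF list was above every RAD21 list, and among the weakest deciles every RAD21 list was above every CTCF list. CTCF peaks covered 86.6%, 51.8%, 64.0% and 59.1% of the weakest decile of the RAD21 lists and 99.7%, 99.0%, 98.4% and 100% of the strongest. The direction of the difference in share at starts turned round with the strength of the peaks kept. It was 0.46 percentage points higher for CTCF with the 22406 strongest peaks of each list (adjusted exact p = 0.371) and 1.49 points higher with peaks below a -log10 q of 10 left out (adjusted exact p = 0.0571).

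**Figure D3:**
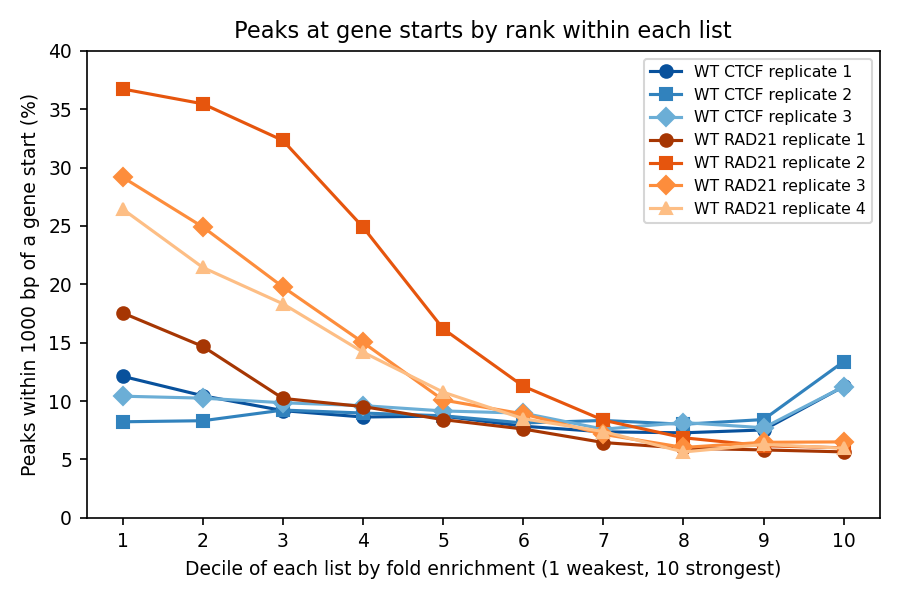
Share of peaks within 1000 bp of a gene start (y axis, percent) for each decile of a list by fold enrichment (x axis, weakest to strongest), with 1 line per WT library, CTCF in blue and RAD21 in orange. In the weakest decile the CTCF lines lie between 8.23% and 12.1% and the RAD21 lines between 17.5% and 36.7%, and in the strongest decile the CTCF lines lie between 11.2% and 13.4% and the RAD21 lines between 5.65% and 6.504%.

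The last question was whether the strongest sites of one protein were the strongest of the other. Over the 19574 shared sites, ranks of fold correlated across sites at a Spearman rho of 0.825 to 0.868 for the 3 pairs of CTCF libraries and of 0.447 to 0.543 for the 12 pairs of a CTCF and a RAD21 library. For the 6 pairs of RAD21 libraries rho was 0.782 to 0.904. Agreement across antibodies was thus below that within either antibody in every pair. Sites are not replicates and the pairs share libraries, so these values are descriptions.

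For a test of single sites, the fold ranks in each library were turned into normal scores, and CTCF minus RAD21 was fitted with limma with Benjamini-Hochberg adjustment over all 19574 shared sites. Scores average 0 in each library, so that a difference is relative to the other shared sites and says nothing of absolute binding. An adjusted p of at most 0.05 was reached by 7635 sites (39.0%), of which 3729 (19.1%) ranked higher for CTCF and 3906 (20.0%) higher for RAD21. Without adjustment 9416 sites had a p under 0.05. Without RAD21 replicate 4, 3378 sites ranked higher for CTCF and 3498 for RAD21. The libraries of the 2 antibodies did not overlap at 8179 sites (41.8%), and among the called sites at 6795 (89.0%). With log2 fold centred on each library's median in place of ranks, 3345 sites were higher for CTCF and 5839 for RAD21, so that the even split depends on the use of ranks.

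Sites at gene starts leaned towards CTCF. Of 1399 shared sites at a start, 34.3% ranked higher for CTCF and 14.2% higher for RAD21, with a median difference of 0.31 in normal scores, against 19.1%, 20.0% and -0.03 over all tested sites. At starts of protein-coding genes (1013 sites) 40.2% ranked higher for CTCF and 11.1% for RAD21, with a median of 0.46. The median start site stood at percentile 53.8, 61.0 and 55.3 of the shared sites in the CTCF libraries and at 39.6, 40.2, 40.5 and 39.9 in the RAD21 libraries, without overlap. Start windows at or above the median number of CpG ranked higher for CTCF in 42.7% of cases and those below it in 25.2%. Start windows with a motif match (167 sites) did so in 46.1% of cases and those without in 32.7%. In both splits a site was given the window of its nearest start, also where its summit lay outside that window. Only 666 windows held the summit of a shared site. Many sites without a match therefore had a summit outside the searched sequence, and both splits mix sequence with distance from the start.

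Elsewhere the balance was different. Of 9422 sites in gene spans, 19.4% ranked higher for CTCF and 18.6% for RAD21, and of 8097 sites outside genes 16.3% and 22.4%, with medians of -0.01 and -0.12. On the X chromosome (519 sites) 15.4% ranked higher for CTCF and 18.9% for RAD21. The distance to the next CTCF site went with the direction too. With the next CTCF site within 1 kb (1431 sites), 12.3% ranked higher for CTCF and 29.5% for RAD21, and from 1 to 10 kb (7674 sites) 15.6% and 29.1%. Beyond 10 kb (10469 sites) 22.5% ranked higher for CTCF and 11.98% for RAD21. The median distance to the next CTCF site was 13684 bp at sites higher for CTCF, 4580 bp at sites higher for RAD21 and 12443 bp at sites not called. These shares describe the called sites, and no test across places was made. CTCF strength itself went with this distance: the median was 16000 bp for the strongest decile of CTCF sites and 10515 bp for all CTCF sites. A neighbouring CTCF peak can also lie in the background that a CTCF fold is set against. The part of either in the shares by distance was not tested.

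**Figure D4:**
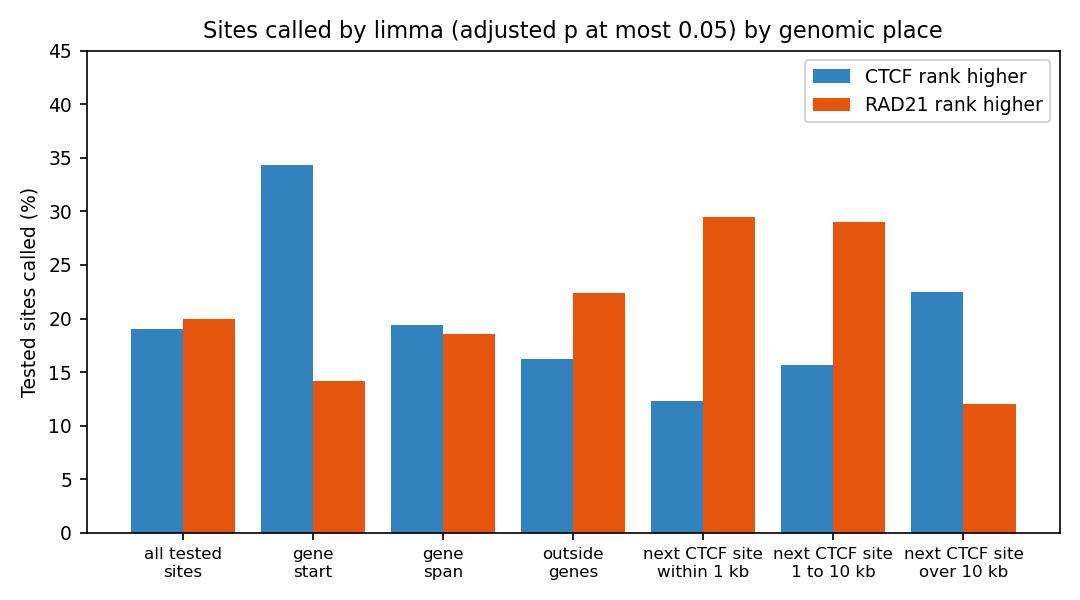
Share of tested sites called by limma at an adjusted p of at most 0.05 (y axis, percent) for all 19574 shared sites, by genomic place and by distance to the next CTCF site, with sites ranked higher for CTCF in blue and higher for RAD21 in orange. The blue bar is the higher at gene starts (34.3% against 14.2%) and beyond 10 kb from the next CTCF site, and the orange bar is the higher where the next CTCF site is within 10 kb.

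At promoters whose sequence is printed above, single values show the size of these differences. At Sh3gl1, which encodes an endophilin of endocytosis, the site (chromosome 17, 56036766) was 107 bp before the start. Its folds were 21.0, 21.3 and 21.1 for CTCF and 4.26, 2.74, 3.56 and 5.26 for RAD21. The CTCF values stood at percentiles 98.9 to 99.95 of the shared sites and the RAD21 values at percentiles 0.296 to 10.3, the largest difference of all tested sites (4.56 ± 0.33, SE, adjusted p = 8.03e-08). Stxbp3 encodes a Munc18 protein of vesicle fusion. Its site, 229 bp before the start, had folds of 21.6, 18.3 and 20.8 for CTCF and 3.75, 3.58, 3.74 and 6.70 for RAD21 (4.16 ± 0.28, adjusted p = 8.03e-08). Nsfl1c encodes p47, a cofactor of the p97 ATPase. Its site, 27 bp before the start, had folds of 24.04, 20.55 and 23 for CTCF and 6.52, 6.80, 5.95 and 4.50 for RAD21 (3.83 ± 0.30, adjusted p = 1.65e-07). At all 3 genes the groups were far apart. They are the 3 of the 9 windows that held a motif match.

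The other 7 of the 10 largest differences at protein-coding starts were at Rab3ip, an activator of Rab GTPases, Tmem260, Nus1, a subunit of the enzyme that makes dolichol precursors, Pabpc4, a poly(A)-binding protein, Chd8, a chromatin remodeller, Wdr37 and Agfg1. Their CTCF folds ran from 16.4 to 24.9 and their RAD21 folds from 2.985 to 6.805, and their differences from 3.68 to 4.14. Away from starts, the largest included sites near Dus3l (3.99), 4930509E16Rik (3.78), Gm10060 (3.64) and Cfap54 (3.57), with CTCF folds of 15.8 to 26.8 and RAD21 folds of 3.03 to 10.49.

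The largest differences in favour of RAD21 at protein-coding starts were smaller than those in favour of CTCF. The site 112 bp before the start of Hoxd10, a posterior Hox gene (chromosome 2, 74691779), had folds of 3.39, 5.85 and 5.21 for CTCF and 6.09, 9.67, 7.92 and 12.1 for RAD21 (-2.26 ± 0.33, SE, adjusted p = 4.82e-05). All CTCF values were below all RAD21 values. The site 152 bp before the start of Timm22, a part of the protein import machinery of the mitochondrial inner membrane, had folds of 15.4, 12.2 and 12.5 for CTCF and 17.4, 16.4, 16.1 and 18.2 for RAD21 (-2.09 ± 0.26, adjusted p = 1.15e-05). Here both proteins gave high folds, and the RAD21 values stood at percentiles 97.9 to 99.6 of the shared sites. The largest difference at a protein-coding start was near Ccdc42 (-2.33 ± 0.27, adjusted p = 6.35e-06), a coiled-coil gene of male germ cells, with folds of 4.59, 4.21 and 4.95 for CTCF and 8.90, 7.36, 7.95 and 10.9 for RAD21. The others among the 10 were Kif26a, a kinesin-family gene, Cyp11a1, the enzyme of the first step of steroid synthesis, Tafa5 and Tafa2, which encode secreted proteins, Pmm1, a phosphomannomutase, Pdgfra, the receptor for platelet-derived growth factor on mesenchyme, and Traf5, an adaptor of tumour necrosis factor receptors. Their differences ran from -2.20 to -1.74.

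The largest named differences in favour of RAD21 lay away from starts. Far more sites ranked higher for RAD21 there, 1751 in gene spans and 1816 outside genes against 198 at starts. A larger extreme is therefore no sign of a larger lead in general. The site inside Tekt4, a tektin of flagellar microtubules (chromosome 17, 25470128), had folds of 6.39, 6.42 and 4.33 for CTCF and 14.7, 12.2, 13.0 and 16.1 for RAD21 (-3.29 ± 0.27, SE, adjusted p = 2.38e-07). Every RAD21 value there was above every CTCF value. The next were near Tmem144 (-2.95), Capn13 (-2.93), Urad (-2.90) and Ece1 (-2.89), an enzyme that activates endothelin. At Capn13 the CTCF folds were 3.05, 2.89 and 2.59, at or below percentile 0.199 of the shared sites, and the RAD21 folds 5.45, 7.57, 8.14 and 10.3.

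**Figure D5:**
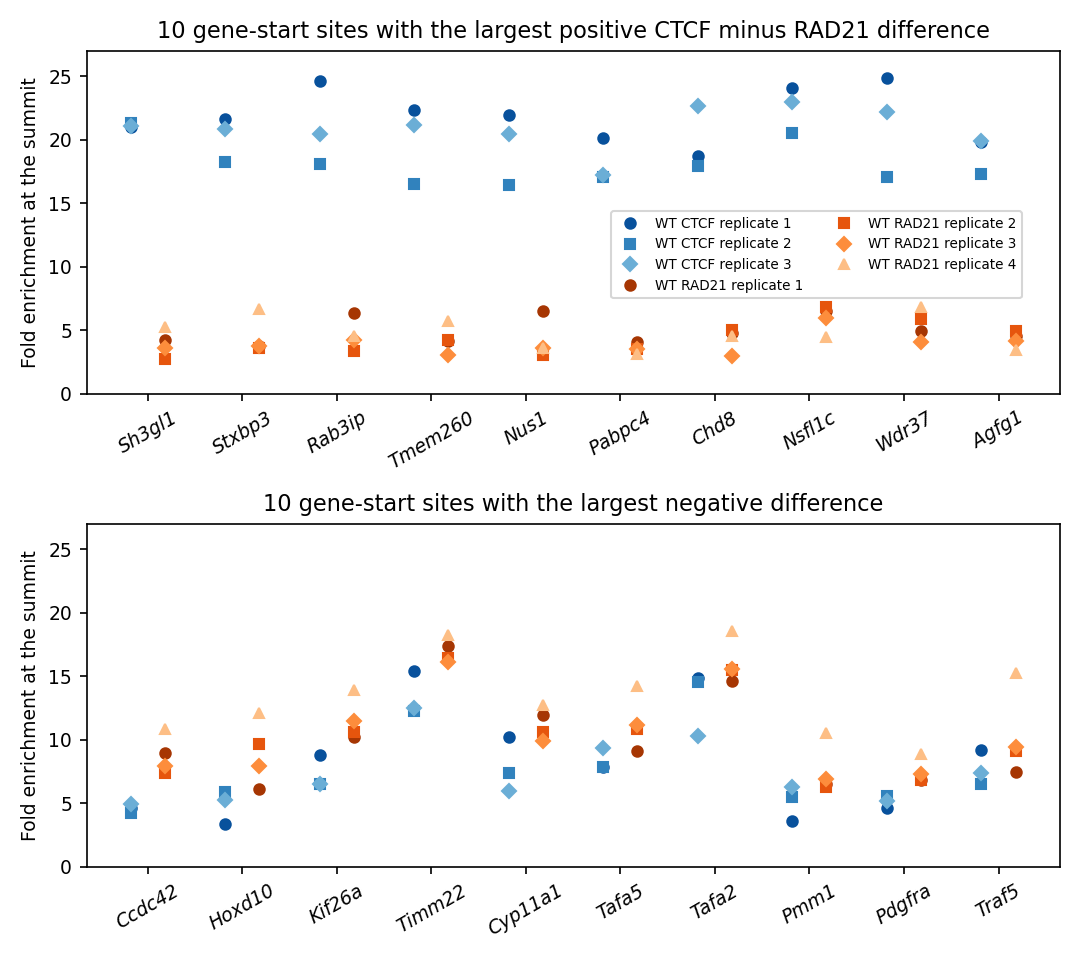
Fold enrichment (y axis) in each WT library at the 10 gene-start sites with the largest positive (top) and the 10 with the largest negative (bottom) CTCF minus RAD21 difference, CTCF in blue left of RAD21 in orange at each gene. In the top panel all CTCF points lie above 16 and all RAD21 points below 7, and in the bottom panel the groups lie closer together.

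The 5 shared sites with the highest mean percentile lay inside or near Gm1604a, Chl1, a neural cell adhesion gene, Gm33838, Gm7446 and Gm5960, with CTCF folds of 19.8 to 36.5 and RAD21 folds of 19.3 to 32.8. Their differences ran from -0.23 to 0.29, and none was called by limma. These sites were chosen for high ranks in all 7 libraries, so that a small difference in rank follows from the choice. Regions that give a high signal with any antibody were not filtered out here. Whether these 5 sites are such regions or sites bound by both proteins was not tested. With centred log2 fold in place of ranks, all 5 were called for RAD21 by limma: Chl1 (-0.73, adjusted p = 0.00481), Gm33838 (-0.70, adjusted p = 0.000642), Gm7446 (-0.52, adjusted p = 4.23e-05), Gm1604a (-0.43, adjusted p = 0.0163) and Gm5960 (-0.39, adjusted p = 0.0070). With ranks of -log10 p, Chl1 was called for RAD21 (-1.77, adjusted p = 0.0107). The site inside Gm1604a had folds of 29.6, 29.3 and 36.5 for CTCF and 21.3, 30.2, 30.8 and 31.7 for RAD21, the highest CTCF fold of replicate 3 and the highest RAD21 fold of replicate 3.

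Gene groups were read against the background of 39.0% called, 19.1% higher for CTCF and 20.0% higher for RAD21. At protein-coding starts alone 40.2% ranked higher for CTCF and 11.1% for RAD21 (median 0.46), and the groups were not matched for place. A site belonged to a group when it lay within 5 kb of a gene of the group. Among genes for CTCF and cohesin themselves (23 of 24 symbols matched), 6 of 17 tested sites ranked higher for CTCF and 2 higher for RAD21, with a median difference of 0.59. The largest were at Stag1, a cohesin subunit (folds 19.6, 14.6 and 16.4 for CTCF and 5.06, 5.26, 4.22 and 11.1 for RAD21, 2.18 ± 0.32, adjusted p = 5.38e-05), at Nipbl, the cohesin loader (1.91), and at Smc3, another subunit of the ring (1.71). At Stag1 RAD21 replicate 4 was higher than the other RAD21 libraries and still below every CTCF library.

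Ribosomal protein genes had a similar balance, with 10 of 23 tested sites higher for CTCF and 4 higher for RAD21, and a median of 0.55. Examples were sites at Rpl36, with folds of 17.5, 15.7 and 16.8 for CTCF and 4.57, 3.902, 3.37 and 3.74 for RAD21 (3.16), and near Rpl11 (1.83). At Rpl36 every CTCF value was above every RAD21 value. Of the 92 CTCF sites near ribosomal protein genes 25.0% had all 4 RAD21 lists, and of the 48 near housekeeping genes 18.8%, against 41.1% of all CTCF sites. Among CTCF sites at a gene start, 1399 of 4128 had all 4. Near housekeeping genes 1 of 9 tested sites was called in each direction, Ppia, a prolyl isomerase, for CTCF (2.36) and Hprt, of purine salvage, for RAD21 (-0.81), while Polr2a did not pass (-0.54, adjusted p = 0.193).

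Developmental groups had few tested sites. Around the HoxD cluster 7 of 11 CTCF sites had all 4 RAD21 lists, and 0 of the 7 ranked higher for CTCF and 4 for RAD21 (median -0.85). They included the Hoxd10 site above, which also lies within 5 kb of Hoxd11, a site near Evx2 (-1.97) and a site within Hoxd3 (-0.85, adjusted p = 0.0225). In the other Hox clusters 1 of 9 ranked higher for CTCF, near Hoxc6 (0.93), and 1 for RAD21, near Hoxa13 (-1.60), and the site near Hoxb6 did not pass (0.64, adjusted p = 0.0521). Imprinted domains had 4 of 36 higher for CTCF and 11 for RAD21 (median -0.27), led by Kcnq1, a potassium channel gene (-2.01), Ins2 (-1.80) and Gnas (-1.77). In the protocadherin clusters 0 of 11 ranked higher for CTCF and 3 for RAD21, the named ones near Pcdhga1 (-1.22) and Pcdha1 (-1.12).

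Near neural tube genes 1 of 10 tested sites ranked higher for CTCF, at the neurogenic factor Neurog2 (2.00), and 3 for RAD21, among them Nkx2-2 (-1.39), a ventral patterning factor, and Sox3 (-0.98). For somite and muscle genes the counts were 2 of 13, led by Pax9 (1.81), and 4, with Lfng (-1.15) and Dll3 (-1.07), which act in the segmentation clock. For limb and lateral plate genes they were 2 of 15, Lmx1b (1.43) and Alx4 (1.09), and 3, led by the T-box gene Tbx2 (-2.30). At Tbx2 the CTCF folds were 4.13, 3.41 and 4.34 and the RAD21 folds 7.01, 7.498, 7.69 and 7.65. For heart genes they were 1 of 12, near Isl2 (1.15), and 4, led by the myosin light chain gene Myl2 (-2.25) and Tnnt2 (-1.60). Some of these sites were weak for both proteins. At Tnnt2 the folds were 3.95, 2.67 and 2.31 for CTCF and 3.98, 4.10, 4.74 and 4.05 for RAD21. The folds of the antibodies overlapped at Sox3 (7.31, 2.90 and 5.50 for CTCF, 4.47, 4.94, 4.82 and 5.49 for RAD21). They also overlapped at Dll3 (2.81, 4.12 and 5.52 for CTCF, 3.46, 5.21, 4.72 and 6.12 for RAD21). Other named sites called for RAD21 with overlapping folds included Lfng, Nkx2-2, Hoxd3, Hoxa13, Hprt, Hnf4a, Spi1, Cyp11a1, Tafa5 and Traf5. The calls rest on ranks within each library, not on folds. At Sox3, Hoxd3, Hprt and Spi1 the mean fold was even higher for CTCF (5.24, 15.02, 12.90 and 15.64) than for RAD21 (4.93, 14.62, 11.92 and 14.68).

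For endoderm and liver genes 3 of 7 tested sites ranked higher for CTCF, among them Afp (2.08), the fetal serum protein, and Cdx2 (1.08), and 1 for RAD21, Hnf4a (-1.13). For blood genes 0 of 8 ranked higher for CTCF and 1 for RAD21, Spi1 (-0.69, adjusted p = 0.0410), and Gata2 (-0.51) and Lmo2 (-0.16) did not pass. The medians of the neural tube, somite, limb, heart, endoderm and blood groups ran from -0.42 for somite and muscle to 0.38 for endoderm and liver. Groups of this size move with a few sites, and no test of a group was made.

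The mutant libraries gave the same measure in embryos that the WT comparison did not use. At the 12769 shared sites with a peak in all 23 mutant libraries, limma with genotype as a covariate called 7629 (59.7%), 3733 (29.2%) higher for CTCF and 3896 (30.5%) higher for RAD21. Of the 1474 of these sites that ranked higher for CTCF in WT, 1441 (97.8%) did so in the mutants and 0 were called for RAD21. Of the 3278 that ranked higher for RAD21 in WT, 2818 (86.0%) did so in the mutants and 2 were called for CTCF. The fit held 1474 of the 3729 sites higher for CTCF in WT and 3278 of the 3906 higher for RAD21. The WT and mutant libraries share no sample, but they share the antibodies, the protocol and the peak caller. The WT embryos were littermates of homozygous mutants, so WT and mutant libraries may share litters as well.

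The classes of sharing were also read in the mutant libraries. CTCF sites with no WT RAD21 list had a CTCF peak in 45.2% to 98.2% of cases in the 11 mutant CTCF libraries (median 90.8%) and a RAD21 peak in 0.194% to 11.3% in the 12 mutant RAD21 libraries (median 5.19%). Sites with all 4 WT RAD21 lists had a CTCF peak in 97.3% to 99.96% and a RAD21 peak in 74.4% to 99.7% of cases. The 89 RAD21 sites with no WT CTCF list had a RAD21 peak in 23.6% to 95.5% of cases (median 68.5%) and a CTCF peak in 0% to 40.4% (median 4.49%).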

How the data were processed

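Peaks of CTCF and RAD21 were given as 1 list per library on the mm10 build. The submitters' processing notes name MACS2 2.1.1.20160309 and, beside it, bedtools 2.27.1, Picard 2.19.0, SAMtools 1.9, Bowtie2 2.3.5 and cutadapt 1.16. Their options are not given in the sources used here. The deposited fold is a ratio, the summit's enrichment over the local background. The authors deposited a -log10 p and a -log10 q with each peak and called each library alone. Values were therefore compared as ranks within a list. The lists hold no counts, so no interval that needs depth was computed.

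Where a peak had several summits, that of the highest fold was used. Peaks on the mitochondrial genome (8 to 22 per WT list) and on scaffolds (21 to 74) were left out. Gene starts and promoter sequences came from RefSeq tables of GRCm38.p6, with 32851 starts that cover 79.9% of protein-coding genes. No start of chromosome 18 was used, and that chromosome was left out of shares by place, motif counts and printed sequences. A gene span but not a start, and outside genes, were the other places.

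Rank differences were tested with the limma package, version 3.58.1 (R 4.3.3, robust, with trend, adjusted p 0.05), after a test on simulated data. Shares and offsets were compared by exact permutation of the 7 libraries, 2-sided, with Benjamini-Hochberg adjustment over 6 measures of place. The rest was done in Python 3.11.15 with scipy 1.17.1, pandas 2.3.3 and numpy 2.4.6, and plots with matplotlib 3.10.9. Sites named were the 10 largest differences of each sign at protein-coding starts, the 5 of each sign away from starts, the 5 strongest sites of each sharing class, and up to 3 genes of each of 13 lists. 1 site that this rule names is not reported here. The members and lists were chosen with earlier results of these data known. The labels do not say whether libraries of an antibody came from separate litters, so p-values measure the spread between these libraries. Alternatives were other overlap rules, lists of equal length, a -log10 q of at least 10, other measures to rank, other start windows, a replicate block and leaving out each library. 3 were added after seeing the data: both ends of gene spans as starts, and the nearest summit for ranks and for motif offsets.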

Additional observations from a re-analysis of the deposited data

Results flagged for a closer look

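Groups of 4 values, 1 from each WT RAD21 library, were checked by Dixon's test at the 95% level. In 6 of the 49 groups checked, 1 value stood far from the others, and all 6 were folds at named sites. Sites named only for a gene group, such as those at Stag1 and Tnnt2, were not among the 49. Chance alone gives about 1 such group in 20. RAD21 replicate 4 was high at the Stxbp3 start, with a fold of 6.70 against 3.58 to 3.75 in the others, and at Pmm1, with 10.54 against 6.25 to 6.86. It was low at the site inside LOC115488500, with 3.62 against 12.4 to 13.3. RAD21 replicate 1 was high near Dus3l, with 5.43 against 3.54 to 3.67, and inside Chl1, with 32.8 against 26.8 to 27.7. It was low inside Gm1604a, with 21.3 against 30.2 to 31.7.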

How the results depend on the processing

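Shares of shared sites moved with how much of each list was used. With a summit of the other antibody required within 100 bp, CTCF lists covered 97.0% of RAD21 sites on average and all 3 covered 94.9%. With a -log10 q of at least 10 these were 99.8% and 99.6%. With lists of equal length the mean shares were 80.3% of CTCF sites and 84.3% of RAD21 sites, with 70.8% of CTCF sites in every RAD21 list, 11.03% in none, and 76.8% of RAD21 sites in every CTCF list. With sites in at least 2 lists the same 5 values were 45.7%, 88.5%, 33.2%, 42.7% and 84.5%. Leaving out 1 library at a time gave 48.9% to 58.0%, 95.9% to 99.4%, 35.9% to 50.4%, 33.9% to 39.2% and 93.5% to 99.2%.

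The difference in share at gene starts turned to 0.46 points with lists of equal length and to 1.49 with the stricter q, and the median distance to a start to -663.9 and -1574 bp. Leaving out 1 library gave -5.66 to -2.59 points at starts, 4.94 to 5.86 in gene spans, -2.34 to -0.20 outside genes, -0.24 to 0.00047 over 50 kb from a gene (0.00047 without RAD21 replicate 4), 46 to 1251 bp for the distance and 84.3 to 107 bp for the width. The summit distance was 27.8 bp for pairs of single libraries. The motif offset was -14.1 bp (exact p = 0.0571) with means over sites. It ran from -16.3 to -13 bp without each library, where the smallest exact p possible was 0.0667 or 0.1. Mean rho across antibodies was 0.46 with ranks of -log10 p and 0.66 over all CTCF sites.

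The rank difference called 3704 sites with the stricter q (1827 higher for CTCF and 1877 for RAD21), and ranks of -log10 p called 5116 higher for CTCF and 5985 for RAD21. Without each library in turn it called 6098 to 8161 sites, 2938 to 3995 higher for CTCF and 3156 to 4166 for RAD21. Of 946 values at named sites under alternatives, 899 kept their direction and call, 10 gained a call, 29 lost it and 8 changed sign. With ranks of -log10 p these were -0.57 at Gm1604a, 0.20 at Gm7446, 0.27 at Hnf4a, 0.10 at Spi1 and 0.16 at Lmo2. With centred log2 fold they were -0.43 at Gm1604a (adjusted p = 0.0163) and -0.39 at Gm5960 (adjusted p = 0.0070), and with the stricter q 0.021 at Lmo2. The causes were not tested.

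Of the same-numbered CTCF and RAD21 libraries only those numbered 1 deviated together by more than 0.1 (correlations 0.231, 0.0356 and -0.0101), so the numbers were not taken to pair them. Between libraries of different numbers the highest correlation was 0.225, for CTCF replicate 3 and RAD21 replicate 4. A block by number does not cover such a pair. With the replicate block limma called 7639 sites, 7024 of them among the 7635 and in the same direction. The block gave a motif offset of -13 bp and 0.00047 points over 50 kb from a gene, at exact p-values of 0.25, the smallest it allows, and 1.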

Other observations

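In the mutant libraries, tRNA genes with a peak within 200 bp numbered 42 to 82 for CTCF (median 55, 11 libraries). For RAD21 the numbers fell far apart, also within an allele. Del(CBS1) libraries had 208, 37 and 29, Del(CBS1-2) libraries 270 and 266, Del(CBS1-3) libraries 273 and 29, Del(CBS1-4) libraries 43 and 56, Del(CBS1-5) libraries 19 and 14, and the Del(CBS2) library 196. No mutant RAD21 library had between 56 and 196. With the WT libraries, at 230, 265, 270 and 41, both low and high values occurred in 3 of the 7 genotypes.

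The share of CTCF sites with all 4 WT RAD21 lists differed little between most autosomes. It was 34.2% on chromosome 5 and 46.2% on chromosome 18, and 38.0% on the X chromosome. CTCF sites of the strongest decile lay farther from their next CTCF site (median 16000 bp) than CTCF sites in all (10515 bp).

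Peaks at the shared sites were wider for CTCF, with medians of 720 ± 28.0 bp (SD, n = 3), than for RAD21, with 531 ± 74.6 bp (SD, n = 4), at an exact permutation p of 0.0571.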
